A study of Mus musculus with 37 samples.

Results

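The 8 genes described here encode the BRCA1-BARD1 ubiquitin ligase and proteins that work with it in homologous recombination: Brca1, Bard1, Brca2, Palb2, Rad51c, Rbbp8, Rad52 and Blm. They were chosen by symbol from the 55401 genes of the deposited expression tables, and all 8 are listed in both tables. The study removed Bap1, which encodes a deubiquitinase of histone H2A named for its association with BRCA1, from the growing oocyte and asked how the transcriptome of oocytes and early embryos differs. The tables hold 37 mouse RNA-seq libraries, 26 of total RNA from oocytes to 2-cell embryos and 11 of poly(A) RNA from embryonic day 6.5. Fully grown oocytes (FGO) and eggs arrested in the second meiotic metaphase (MII) were Bap1 flox/flox in the controls, with 2 libraries each, and Gdf9-iCre, Bap1 flox/flox in the conditional knockouts, with 3 libraries each. Embryos at the late 1-cell (L1C), early 2-cell (E2C) and late 2-cell (L2C) stages came from such females and B6 males, with 2, 3 and 2 control libraries and 3 maternal knockout libraries each. Lineages at embryonic day 6.5 came from the same kinds of female and PWK males: epiblast (EPI) and visceral endoderm (VE) with 2 control and 2 knockout libraries each, and extraembryonic ectoderm (EXE) with 1 control and 2 knockout libraries. Every group, controls included, came from females with floxed Bap1, which iCre deletes in the knockouts. The Gdf9 promoter drives iCre in oocytes, so the knockout is maternal and the embryos received an unmodified paternal allele. The labels do not say whether replicates came from separate females or pools, so the p-values measure only the spread between these libraries.

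Homologous recombination repairs a double-strand break by copying the sister chromatid or the homologue. BRCA1 and BARD1 act early, together with CtIP (the product of Rbbp8), when the broken ends are resected to 3′ tails. PALB2 links BRCA1 to BRCA2, and BRCA2 and RAD51C act in the strand exchange that follows. RAD52 anneals complementary strands, and the BLM helicase resects ends and dissolves joint molecules. Oocytes rely on recombination for meiotic crossovers, and a fertilized egg first divides with the proteins and transcripts that the oocyte stored.

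Levels are given as FPKM, that is, fragments scaled by gene length and by the fragments counted in the library. They are shares within a library, so a higher value can come from more of that transcript or from less of others, and total RNA per oocyte or embryo is not known from them. In these bulk samples, fewer cells of a type and less RNA per cell cannot be told apart. Changes are differences of group means of log2(FPKM + 1), a scale that understates changes of low genes, with their standard error (SE). The adjusted p is from limma over all genes tested, with Benjamini-Hochberg adjustment. A second adjusted p, from limma on the libraries of the compared stages alone, follows it, and changes are called here only below 0.05 in both.

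Bap1 was lower in every knockout library of the oocyte and early embryo than in every control library of its stage, at 3.76 to 5.13 FPKM against 16.3 to 29.9 in FGO and MII, and at 9.69 to 11.7 against 20.9 to 24.4 in L2C. In the lineages of embryonic day 6.5 it was not lower, at 18.3 to 33.8 FPKM in the knockouts and 14.0 to 22.6 in the controls. Oocyte markers were abundant in oocytes and eggs, and the 8 visceral endoderm markers summed to 7001 to 8220 FPKM in VE against at most 14.1 in EPI and EXE. The 8 epiblast markers summed to 1478 to 2171 FPKM in EPI and at most 239 in VE, but 552 to 683 in EXE. Of 10 granulosa and cumulus cell markers, 3 reached 1 FPKM in FGO, where all 10 summed to 25.6 to 27.4 FPKM in controls and 16.1 to 17.8 in knockouts. The sums were as high in embryos, at 23.4 to 30.2 FPKM in control L1C and 14 to 17.5 in knockout L1C. In L2C they were 38.1 to 40.4 FPKM in controls and 21.7 to 32.7 in knockouts. Carry-over of such cells was not tested.

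In control FGO, Brca2 had the highest mean level of the 8 genes per kilobase, 55.7 ± 0.534 FPKM (SD, n = 2), followed by Brca1 (37.7 ± 0.734), Rbbp8 (23.3 ± 0.943), Palb2 (17.4 ± 1.24), Blm (13.8 ± 1.01), Rad52 (9.99 ± 0.323), Rad51c (8.68 ± 1.26) and Bard1 (5.48 ± 0.47). The control libraries of neighbours in that order did not overlap at this stage. BARD1 stabilizes BRCA1 by pairing with it, and its transcript stood at the foot of the order in FGO while that of Brca1 stood second. By L2C, Brca2 had gone up to 106 ± 9.9 FPKM (n = 2), and Bard1 was at 1.6 ± 0.432.

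**Figure D1:**
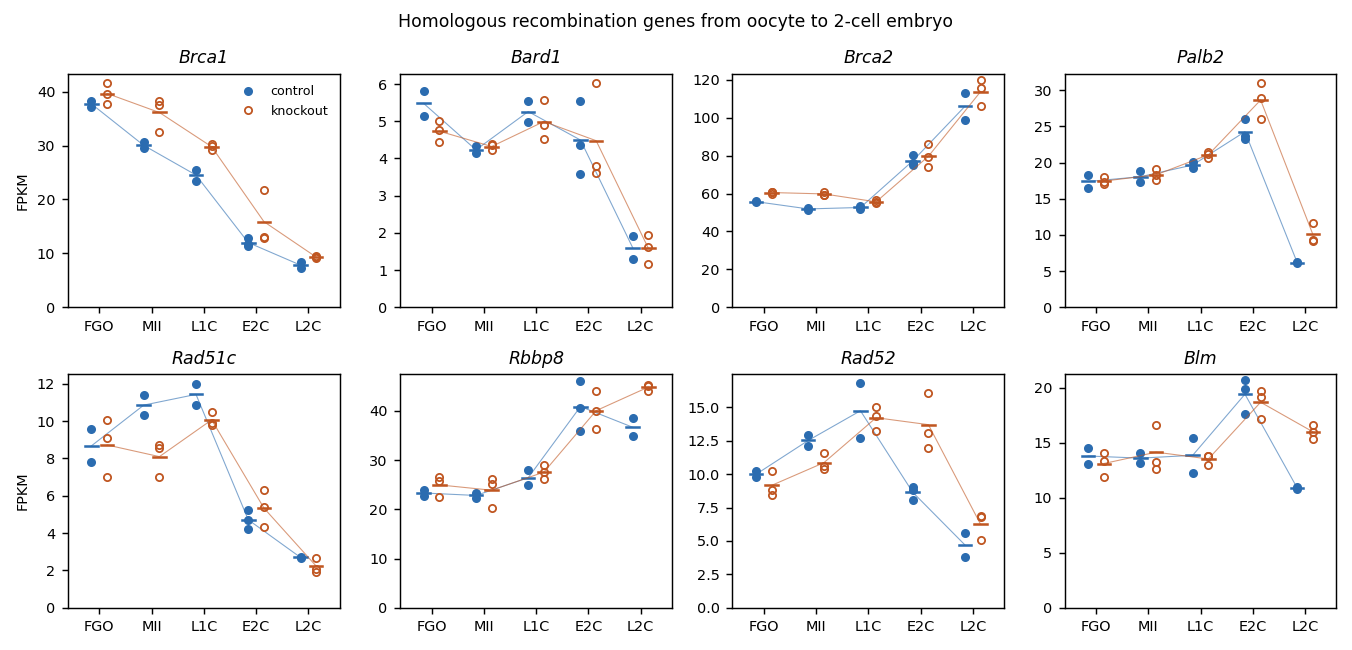
FPKM of the 8 genes (vertical axes, linear, from 0) in each total RNA library by stage; filled circles are control libraries, open circles knockout libraries, and short bars joined by thin lines are group means. Brca1 goes down from 37.7 to 7.83 FPKM in controls, Brca2 goes up from 55.7 to 106, and Palb2 and Blm show the knockout libraries apart from the controls in L2C.

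Brca1, the ubiquitin ligase subunit, lies on chromosome 11 (101488764 to 101551955, minus strand, GRCm38 with GENCODE M21). Its start is 194 bases from that of Nbr1, an autophagy receptor gene read in the opposite direction. The 193 bases between the starts are shown because both genes begin at their ends (chr11:101551956-101552148, minus strand, GRCm38.p6, RefSeq promoter table).
Brca1 to Nbr1 interval: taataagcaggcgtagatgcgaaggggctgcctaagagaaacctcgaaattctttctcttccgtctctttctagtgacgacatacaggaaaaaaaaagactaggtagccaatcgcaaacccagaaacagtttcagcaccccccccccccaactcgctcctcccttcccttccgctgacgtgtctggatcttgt
The control libraries held 37.2 and 38.2 FPKM of Brca1 in FGO, 29.5 and 30.6 in MII, 23.5 and 25.5 in L1C, 11.4 to 12.9 in E2C, and 7.34 and 8.32 in L2C. Each stage lay below the one before it with no overlap of libraries. The first step, FGO to MII, was -0.32 on the log2 scale (SE 0.1) and did not pass the test (limma adjusted p = 0.0556, on these stages alone 0.0803). Between MII and L1C the transcript fell by 0.28 on the log2 scale (SE 0.1, limma adjusted p = 0.0351, on these stages alone 0.0356), between L1C and E2C it fell by 0.97 (SE 0.13, limma adjusted p = 3.91e-06, alone 0.00115), and between E2C and L2C it fell by 0.56 (SE 0.16, limma adjusted p = 0.00633, alone 0.0336). The earliest of these called falls was small: leaving out any of the 4 control libraries gave changes of -0.34 to -0.23 and ended the call, and centring on library medians gave a change of -0.11. The last was at a limma adjusted p of 0.0634 without L2C control replicate 1.

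Knockout oocytes and embryos held 37.8 to 41.6 FPKM of Brca1 in FGO, 32.5 to 38.3 in MII, 29.1 to 30.3 in L1C, 12.8 to 21.8 in E2C and 9.18 to 9.53 in L2C. All 3 knockout libraries lay above both controls in MII, L1C and L2C, and the groups overlapped in FGO and E2C. The difference between knockout and control was 0.26 (SE 0.08) in MII and 0.27 (SE 0.09) in L1C on the log2 scale. In MII the limma adjusted p was 0.0357 in the fit of all stages and 0.106 on MII alone, and in L1C it was 0.0488 and 0.051. Leaving out either control library of a stage, among others, also ended these calls, with limma adjusted p up to 0.212 in MII and 0.321 in L1C. In E2C the mean difference of 0.34 (SE 0.16, limma adjusted p = 0.184) came with knockout replicate 2 at 21.8 FPKM, beside 13.0 and 12.8 in the other knockouts.

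Bard1 (chromosome 1, 71027498 to 71103146, minus strand) encodes the obligate partner of BRCA1. The 76 bases upstream of its annotated start are shown for 2 sequence matches often found before cell cycle genes (chr1:71103147-71103222, minus strand, GRCm38.p6). Capitals mark a CHR element, TTTGAA, and an E2F-type site, TTTCCCGC.
Bard1 upstream: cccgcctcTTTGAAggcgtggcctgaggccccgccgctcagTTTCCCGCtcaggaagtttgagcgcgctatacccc
The search covered both strands of the 300-base window of RefSeq promoters, 250 bases before to 50 after each start, for the E2F-type letters TTTCCCGC, TTTCGCGC, TTTGCCGC or TTTGGCGC and the CHR letters TTTGAA or TTCGAA. The matches do not overlap in Bard1. An E2F-type match occurs in 2.26% and a CHR match in 19.2% of 32851 windows. Of the 7 genes with a window, Bard1, Brca2 and Rad51c had an E2F-type match, and Bard1 was the one with a CHR match. Rbbp8 was not matched.

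Bard1 libraries of controls held 5.15 and 5.81 FPKM in FGO, 4.14 and 4.33 in MII, 4.99 and 5.54 in L1C, 3.58 to 5.54 in E2C, and 1.29 and 1.91 in L2C. The level up to E2C stayed within a narrow band and the L2C libraries lay below all earlier ones. Bard1 fell by 1.07 on the log2 scale from E2C to L2C (SE 0.21, limma adjusted p = 0.000154, alone 0.00337). It did not pass the test from L1C to E2C, where Brca1 fell (-0.2, 95% interval -0.55 to 0.15). From FGO to L2C, the control mean of Brca1 went to 0.208 of its level and that of Bard1 to 0.292. In the knockout the corresponding ratios were 0.235 and 0.335. Knockout and control libraries of Bard1 overlapped in MII, L1C, E2C and L2C, and its differences ran from -0.18 in FGO (95% interval -0.42 to 0.07) to 0.02 in MII (-0.19 to 0.24).

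Rbbp8 encodes CtIP, which starts end resection together with BRCA1. Its control libraries held 22.6 and 24.0 FPKM in FGO, 22.3 and 23.4 in MII, 24.9 and 27.9 in L1C, 35.8 to 46.1 in E2C, and 34.8 and 38.5 in L2C. The 2-cell libraries all lay above those of the oocyte, egg and 1-cell embryo. Rbbp8 rose by 0.61 from L1C to E2C on the log2 scale (SE 0.14, limma adjusted p = 0.00101, alone 0.00194), and the change to L2C was -0.15 (95% interval -0.5 to 0.2), or -0.4 and called with median centring (limma adjusted p = 0.0329). In L2C the knockout libraries held 44.1, 45.1 and 45.3 FPKM, above both controls, with a difference of 0.28 (SE 0.16) that did not pass the test (limma adjusted p = 0.171, alone 0.053). Of the exonic bases of Rbbp8, 3.21% also belong to an overlapping annotated gene, and whether the counting used the strand is not given in the sources used here.

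Brca2 (chromosome 5, 150522630 to 150570329, plus strand) encodes a mediator of strand exchange, and among the 8 genes it was the one called higher at both steps of the 2-cell period. The 250 bases before its RefSeq start are shown for an E2F-type match, which lies on the opposite strand and is written in capitals as it reads on the plus strand (chr5:150522371-150522620, GRCm38.p6).
Brca2 upstream: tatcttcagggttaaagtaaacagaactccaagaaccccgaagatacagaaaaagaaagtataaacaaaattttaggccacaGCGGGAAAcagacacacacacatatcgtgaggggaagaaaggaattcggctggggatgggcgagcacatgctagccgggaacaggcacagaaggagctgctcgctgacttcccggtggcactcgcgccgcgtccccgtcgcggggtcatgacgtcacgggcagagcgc
Control libraries held 55.4 and 56.1 FPKM of Brca2 in FGO, 51.4 and 52.3 in MII, 51.9 and 53.4 in L1C, 75.2 to 80.4 in E2C, and 99.0 and 113 in L2C. Libraries of L1C, E2C and L2C did not overlap. Brca2 rose by 0.54 from L1C to E2C (SE 0.07, limma adjusted p = 1.55e-06, alone 0.000406) and by 0.45 from E2C to L2C (SE 0.08, limma adjusted p = 0.000121, alone 0.00324), both on the log2 scale. With centring on library medians the later change was 0.2 and was not called (limma adjusted p = 0.096). Its control mean in L2C was 1.9 times that in FGO, and the knockout ratio was 1.88.

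Brca2 was slightly higher in knockout eggs, at 59.2, 59.3 and 61.0 FPKM against 51.4 and 52.3. The difference of 0.2 on the log2 scale (SE 0.04) had a limma adjusted p of 0.00185 with all stages and 0.0612 on MII alone. It kept the first call without each of the 5 MII libraries. In FGO the knockout libraries, at 59.9 to 61.0 FPKM, also lay above the controls, with a difference of 0.12 (SE 0.05, limma adjusted p = 0.113), which passed the threshold when libraries were centred on their medians (0.028). From L1C on the differences were 0.04 to 0.1 and did not pass the test.

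Palb2 (chromosome 7, 122107262 to 122132985, minus strand), the bridge between BRCA1 and BRCA2, had the largest fall of the 8 genes in control 2-cell embryos and the largest knockout difference that passed the test. Its start is 56 bases from that of Dctn5, a dynactin subunit gene read the other way. The 55 bases between the starts hold neither kind of match and are shown because both genes differed in the knockout (chr7:122132986-122133040, minus strand, GRCm38.p6).
Palb2 to Dctn5 interval: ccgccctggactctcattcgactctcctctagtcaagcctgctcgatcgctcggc
Control libraries held 16.5 and 18.3 FPKM of Palb2 in FGO, 17.3 and 18.8 in MII, 19.2 and 20.1 in L1C, 23.2 to 26 in E2C, and 6.15 and 6.23 in L2C. E2C was the highest stage and L2C the lowest, with no overlap with any other. Palb2 rose by 0.29 from L1C to E2C on the log2 scale (SE 0.1, limma adjusted p = 0.0225, alone 0.0417). That call was lost without L1C control replicate 2 (0.0849) or E2C control replicate 1 (0.126) and with scaling to TPM (limma adjusted p = 0.492). It then fell by 1.81 to L2C (SE 0.12, limma adjusted p = 1.4e-10, alone 8.05e-07), to 0.255 of its E2C mean.

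Knockout L2C embryos held 11.7, 9.28 and 9.23 FPKM of Palb2. All 3 lay above both controls, and the group means were 10.1 ± 1.41 (SD, n = 3) and 6.19 ± 0.0554 (n = 2). The difference was 0.62 on the log2 scale (SE 0.11, limma adjusted p = 0.000263, alone 0.0193). In the fit of all stages it kept its call without each of the 5 L2C libraries, at 0.51 to 0.67. It was also called under the 7 other settings tried. The fit of L2C alone was not repeated with a library left out. In knockout E2C embryos Palb2 was at 26.1, 31.0 and 28.9 FPKM against 23.2 to 26, also above all controls, but the difference of 0.23 did not pass the test (SE 0.12, limma adjusted p = 0.239, alone 0.271). The fall from E2C to L2C was to 0.352 of the E2C mean in the knockout, and the test of the difference between the 2 stages' knockout effects gave 0.39 (SE 0.16, limma adjusted p = 0.114, alone 0.194). In FGO, MII and L1C the knockout differences were 0.01, 0.02 and 0.1. Of the exonic bases of Palb2, 5.64% also belong to the annotated gene Gm16326, and 5.12% of its 50-base words occur in other annotated genes.

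Marker levels measured in the same embryos moved with this difference. The 8 oocyte markers summed to 778 to 908 FPKM in knockout L2C against 479 to 504 in the controls, and the 8 markers of the 2-cell stage to 473 to 593 against 147 to 152. In E2C the oocyte sums overlapped between genotypes (876 to 1129 against 941 to 1245), and the 2-cell sums were lower in the knockout (116 to 263 against 296 to 408). All 8 markers of each list reached 1 FPKM in these embryos, and none of them was at 0. The part of these levels in the differences of Palb2 and Blm was not tested.

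Rad51c (chromosome 11, 87376645 to 87404954, minus strand) encodes a protein of strand exchange and of interstrand crosslink repair. It starts 111 bases from Tex14, a germ cell gene of intercellular bridges read in the opposite direction. The 110 bases between them are shown as the counterpart of the Palb2 interval (chr11:87404955-87405064, minus strand, GRCm38.p6).
Rad51c to Tex14 interval: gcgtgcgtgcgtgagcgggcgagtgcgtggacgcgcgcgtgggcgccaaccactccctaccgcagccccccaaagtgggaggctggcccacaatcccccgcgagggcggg
Control libraries held 7.79 and 9.57 FPKM of Rad51c in FGO, 10.3 and 11.4 in MII, 10.9 and 12 in L1C, 4.2 to 5.22 in E2C, and 2.68 and 2.71 in L2C. The 2-cell libraries lay below all earlier ones. Rad51c fell by 1.12 from L1C to E2C (SE 0.18, limma adjusted p = 3.26e-05, alone 0.000151) and by 0.62 from E2C to L2C (SE 0.22, limma adjusted p = 0.0231, alone 0.0198) on the log2 scale. The later fall lost its call without E2C control replicate 1 (0.0829) or either L2C control (0.08 and 0.0835), and with no filter on low values.
In knockout eggs Rad51c was at 7.01, 8.57 and 8.71 FPKM, below both controls at 10.3 and 11.4. The difference of -0.39 (SE 0.11) had a limma adjusted p of 0.0203 with all stages and 0.0781 on MII alone, and it lost the first call without either MII control or without knockout replicate 1 (0.0559 to 0.197). Knockout libraries were also below both controls in L1C, at 9.8 to 10.5 FPKM, with a difference of -0.17 (limma adjusted p = 0.433). Groups overlapped in FGO, E2C and L2C.

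Rad52 (chromosome 6, 119902698 to 119922828, plus strand) encodes the strand annealing protein. Control libraries held 9.76 and 10.2 FPKM in FGO, 12.1 and 12.9 in MII, 12.7 and 16.8 in L1C, 8.05 to 9.06 in E2C, and 3.81 and 5.59 in L2C. Rad52 fell by 0.7 from L1C to E2C (SE 0.16, limma adjusted p = 0.00133, alone 0.00302) and by 0.78 from E2C to L2C (SE 0.2, limma adjusted p = 0.00232, alone 0.00475) on the log2 scale, the later call being lost without L2C control replicate 1 (0.0651). Knockout E2C embryos held 11.9, 16.1 and 13.1 FPKM, all above the 3 controls. The means were 13.7 ± 2.13 and 8.65 ± 0.531 (SD, n = 3 each), a difference of 0.6 on the log2 scale (SE 0.19, limma adjusted p = 0.0442, alone 0.0494). This call sat near the threshold: limma adjusted p was 0.071 to 0.173 without any of the 3 controls or knockout replicates 2 and 3, and 0.0602 was the highest of the other settings. In L2C the difference was 0.35 (SE 0.18, limma adjusted p = 0.15) with overlapping libraries. The E2C effect minus the L1C effect was 0.64 (SE 0.22, limma adjusted p = 0.132, alone 0.182).

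Blm (chromosome 7, 80454733 to 80535119, minus strand) encodes the helicase of the dissolvasome. Control libraries held 13.1 and 14.5 FPKM in FGO, 13.1 and 14.0 in MII, 12.3 and 15.4 in L1C, 17.6 to 20.7 in E2C, and 10.8 and 11 in L2C. The course had its highest level in E2C, as that of Palb2 did. Blm rose by 0.46 from L1C to E2C (SE 0.15, limma adjusted p = 0.0146, alone 0.0105) and fell by 0.78 to L2C (SE 0.18, limma adjusted p = 0.00112, alone 0.000251) on the log2 scale. The rise was not called without L1C control replicate 2 (0.31, adjusted p = 0.13 by limma), E2C control replicate 1 (0.0796) or E2C control replicate 2 (0.0587), nor with scaling to TPM.
Knockout L2C embryos held 15.3, 16.0 and 16.6 FPKM of Blm, and both controls were below 11.1. The group means were 16.0 ± 0.633 (SD, n = 3) and 10.9 ± 0.173 (n = 2), a difference of 0.51 on the log2 scale (SE 0.17, limma adjusted p = 0.0224, alone 0.0134). Without L2C control replicate 1 or 2 or knockout replicate 2 or 3 the change was 0.49 to 0.53 with limma adjusted p of 0.111, 0.0886, 0.0541 and 0.077, and with no filter on low values the adjusted p was 0.188. In E2C the libraries overlapped, at 17.2 to 19.7 FPKM in the knockout. From E2C to L2C the control mean went to 0.561 of its level and the knockout mean to 0.856, and the test of that difference gave 0.57 (SE 0.25, limma adjusted p = 0.121, alone 0.0407).

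Counted over the 8 genes, the knockout difference passed the test in both fits for 0 genes in FGO, MII and L1C, 1 in E2C (Rad52) and 2 in L2C (Palb2 and Blm), all higher. Over all genes tested the corresponding shares were 6.02%, 8.52%, 10.1%, 7.17% and 28.4%, and the shares called higher were 3.04% in E2C and 14.2% in L2C. The fit of all stages alone called 0, 3, 1, 1 and 2 of the 8, against 13.9%, 16.8%, 17.6%, 13.5% and 34.2% of all genes. In FGO, 1 of the 8 had an unadjusted p under 0.05 (Brca2). The share in L2C, 2 of 8, was near that of all genes. The median difference of the 8 in L2C was 0.26, beside 0.03 over all genes. With TPM scaling the filter, applied after scaling, kept 19980 genes rather than 15184, and their median was 0.12. The differences of Palb2 and Blm were at least 0.62 and 0.49 under the 7 other settings. The difference of knockout effects between consecutive stages was called for 0 of the 8 genes at each of the 4 steps with all stages fitted, beside 0%, 0.198%, 3.35% and 18.9% of all genes. By limma, 1, 0, 1 and 2 of the 8 had an unadjusted p under 0.05 at these steps.

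**Figure D2:**
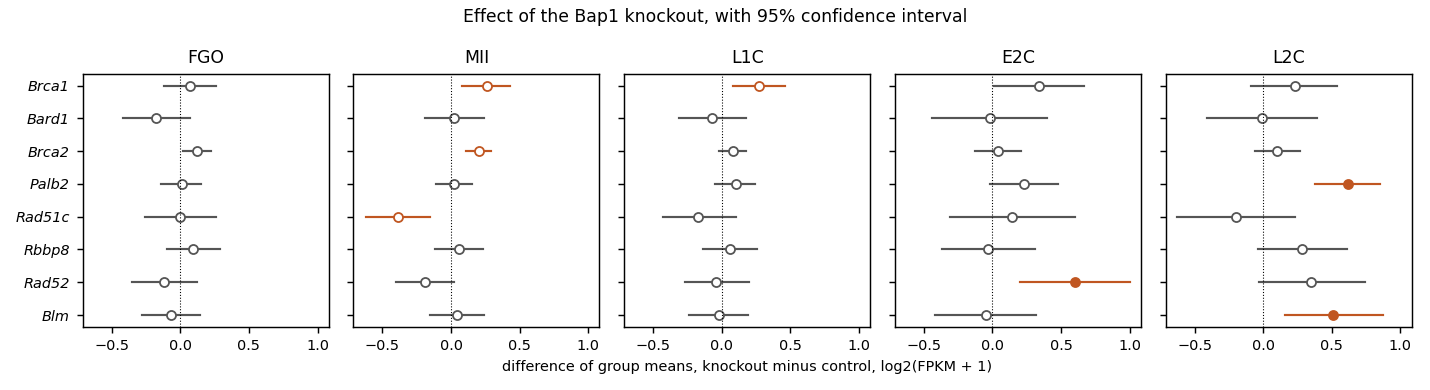
Knockout minus control difference of each gene by stage on the log2(FPKM + 1) scale, with its 95% confidence interval from limma with all stages; orange marks an adjusted p under 0.05, and filled orange circles mark that in the fit of the stage alone as well. Palb2 (0.62) and Blm (0.51) in L2C and Rad52 (0.6) in E2C are filled.

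In controls, 7 of 8 genes were called in both fits between L1C and E2C, 4 higher (Brca2, Palb2, Rbbp8 and Blm) and 3 lower (Brca1, Rad51c and Rad52), beside 39.3% of all genes (13.7% higher and 25.6% lower). Between E2C and L2C 7 of 8 were called again, with Brca2 higher and Brca1, Bard1, Palb2, Rad51c, Rad52 and Blm lower, beside 47.9% of all genes (27.3% higher and 20.6% lower). Between MII and L1C 1 was called lower (20.1% of all genes, 13% lower), but with median centring Brca1 was not called and 5 of the 8, Bard1, Brca2, Palb2, Rbbp8 and Rad52, were called higher, and between FGO and MII 0 (3.04%), with 4 of 8 at an unadjusted p under 0.05. The fit of all stages called the same numbers of the 8, beside 5.39%, 25.4%, 47.2% and 51.7% of all genes for the 4 steps in order. Centring on library medians moved the median change of all genes from -0.01 to 0.16 between MII and L1C and from 0.02 to -0.23 between E2C and L2C. Among all genes called with all stages, centring moved the share called higher from 38.4% to 50.4% between L1C and E2C. Between E2C and L2C it moved that share from 56.5% to 42.2%. For the knockout in L2C the share was 49.8%, and 64% with TPM scaling. The TPM share is over 19980 genes rather than 15184, since the filter and the added 1 came after scaling. TPM also scales to a sum that includes Gm23935, at 20.2 and 23.1% of summed FPKM in control L2C and 15.3 to 17.3% in knockouts. Its part was not tested. The directions of the 2-cell changes of the 8 genes held under median centring and under TPM scaling.

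The 4 genes with a neighbour starting within 1000 bases on the other strand were Brca1, Palb2, Rad51c and Rad52, whose neighbour 4930540M05Rik, a long noncoding RNA, reached at most 0.219 FPKM. Dctn5 followed a course like that of Palb2 only in part: in control libraries it was at 15.1 and 18.8 FPKM in L1C, 8.0 to 8.57 in E2C and 1.66 and 1.76 in L2C. It fell at both steps, by 0.94 (limma adjusted p = 3.46e-05, alone 0.000781) and by 1.78 (limma adjusted p = 7.67e-08, alone 9.81e-06) on the log2 scale, while Palb2 rose at the first. In knockout L2C embryos Dctn5 was at 4.0, 4.06 and 4.96 FPKM, above both controls, a difference of 0.97 (SE 0.17, limma adjusted p = 0.000189, alone 0.00659). Both genes of this pair were thus higher in knockout L2C.

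Tex14, beside Rad51c, was at 2.15 and 2.47 FPKM in control L2C and at 8.32, 6.38 and 4.96 in the knockout. The groups did not overlap, and the difference was 1.17 (SE 0.2, limma adjusted p = 0.000141, alone 0.00537). It exceeded that in E2C by 1.02 (SE 0.29, limma adjusted p = 0.0185, alone 0.0443), a call lost without E2C knockout replicate 1 or L2C control replicate 2 (limma adjusted p up to 0.0712) and with no filter on low values (0.0637). Rad51c itself, with the other start of that interval, had a knockout difference of -0.2 in L2C (95% interval -0.63 to 0.23). Nbr1 was at 46.2 and 47.1 FPKM in control L2C and 45.5 to 53.6 in the knockout (0.07, SE 0.12, limma adjusted p = 0.719), and Brca1 beside it differed by 0.23 (95% interval -0.09 to 0.54). No test compared the 2 genes of a pair with each other.

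**Figure D3:**
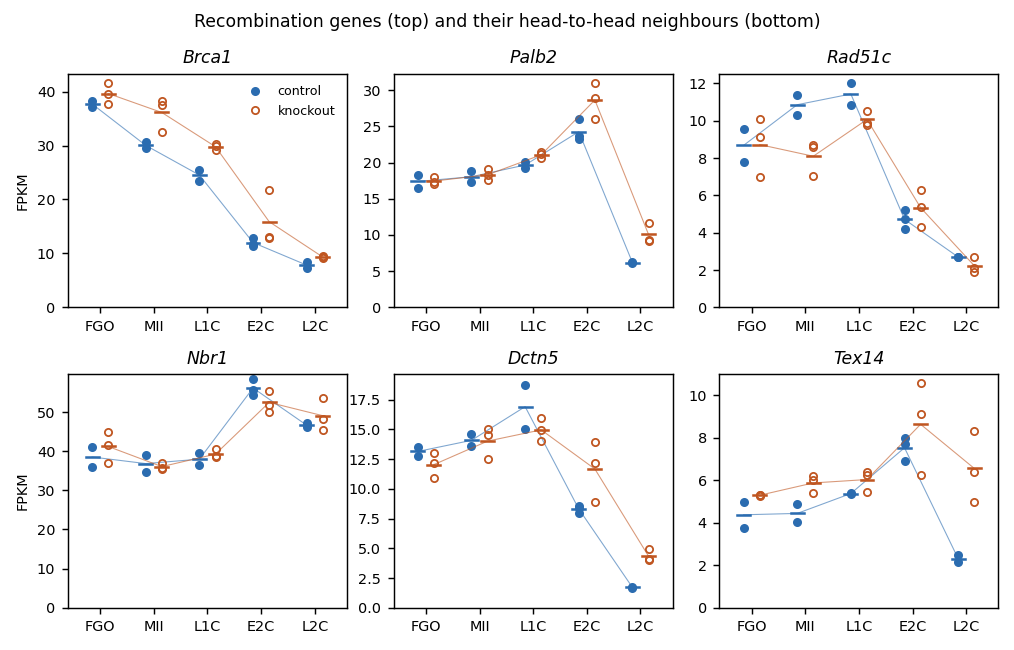
FPKM in each total RNA library of Brca1, Palb2 and Rad51c (top) and of the gene whose start faces each of them (Nbr1, Dctn5 and Tex14, bottom); filled circles are controls, open circles knockouts, and bars are group means. In L2C the knockout libraries lie above the controls for Palb2, Dctn5 and Tex14, at means of 10.1, 4.34 and 6.55 FPKM against 6.19, 1.71 and 2.31.

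Other genes of the pathway were taken in lists by role, and the named genes are those with the largest change in each list. Counts for knockout L2C stand beside 28.4% of all genes called in both fits, 14.2% higher and 14.3% lower, and counts for FGO beside 6.02%. Of 11 BRCA1 partner and resection genes, 3 rose in knockout L2C in both fits, with Abraxas1, the scaffold of the BRCA1-A complex, changing most (0.88, limma adjusted p = 0.000129, alone 0.00829). The resection nuclease gene Dna2 was the 1 of them that fell (-0.98, limma adjusted p = 0.000461, alone 0.0127).
Among the partners of BLM and the resolvases, 11 of 13 genes were tested, and in knockout L2C 0 rose and 1 fell, the endonuclease subunit gene Eme1 (-0.99, limma adjusted p = 0.00468, alone 0.0191). Rmi1, a subunit of the dissolvasome with BLM, had a difference of 0.5 that did not pass on L2C alone (limma adjusted p = 0.016, alone 0.0755).

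Of 17 meiotic recombination genes 12 were tested, and 1 rose and 2 fell in knockout L2C, near the 28.4% of all genes. Hsf2bp, whose product binds BRCA2, rose from 4.37 and 5.17 FPKM to 12.2, 15.1 and 18.1 (1.47, SE 0.18, limma adjusted p = 3.77e-06, alone 0.000866). Mei4, required for meiotic breaks, fell by 0.95 on the log2 scale in FGO, from 3.3 and 3.36 FPKM to between 1.2 and 1.34 (SE 0.13, limma adjusted p = 3.51e-05, alone 0.00683). It was 1 of 2 genes among the 12 that fell in FGO in both fits, and 0 rose, beside 6.02% of all genes called. All knockout libraries of Hsf2bp and Mei4 lay outside the controls in these comparisons. In FGO, where none of the 8 genes was called, the Fanconi anaemia core gene Fancb also fell, by 1.23 (SE 0.12, limma adjusted p = 2.04e-07, alone 0.00307), from 4.09 and 4.53 FPKM to between 1.21 and 1.31. It was 1 of 14 genes of its list called in FGO, beside 6.02% of all genes. Lig4, the ligase of end joining, was the 1 of 18 end joining genes that fell in FGO in both fits, by 0.8 (SE 0.1, limma adjusted p = 3.91e-06, alone 0.00809), from 13.0 and 14.7 FPKM to between 7.09 and 8.11. The cyclin E2 gene Ccne2 rose in FGO, by 0.66 (limma adjusted p = 0.000765, alone 0.0221). Differences in FGO of 0.18 for Topbp1 and -0.44 for Wee1 had limma adjusted p of 0.0275 and 0.0452 with all stages and 0.197 and 0.0976 on FGO alone.

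In knockout L2C, 0 of the 14 Fanconi genes rose and 2 fell, Faap24 most (-1.23, limma adjusted p = 0.00324, alone 0.00126). The largest positive differences of the Fanconi and end joining lists, 0.57 for Ube2t and 0.41 for Xrcc5, did not pass on L2C alone (limma adjusted p = 0.0626 and 0.141). Mei4 was lower in L2C as well (-0.85, limma adjusted p = 0.00521, alone 0.0303). Of the end joining genes 0 rose and 2 fell, Polq, the polymerase of microhomology joining, most (-0.98, limma adjusted p = 0.00168, alone 0.00218). Of 11 damage signalling genes 1 rose, the checkpoint kinase gene Chek1 (0.6, limma adjusted p = 7.95e-05, alone 0.00402), and 4 fell. Chek2 was at 27.7 and 28.7 FPKM in controls and 9.7 to 11.5 in the knockout (-1.36, limma adjusted p = 0.0109, alone 0.000292), and its call was lost without either L2C control (up to 0.0665), with TPM scaling, a pseudocount of 0.1 or no filter (up to 0.148). Among 17 replication and S phase genes 2 rose and 5 fell in L2C, where 14.2% of all genes rose and 14.3% fell, with Ccne2 (cyclin E2) up 0.79 (limma adjusted p = 0.00491, alone 0.00216) and Mcm7, of the replicative helicase, down (-1.2, limma adjusted p = 7.69e-05, alone 0.00144). With no filter on low values, the L2C calls of Faap24, Ccne2 and Mei4 were lost (limma adjusted p up to 0.0763).
In knockout L2C, the BRCA1 partner, meiotic recombination, damage signalling and replication lists held changes called in both fits in both directions. The lists of BLM partners and resolvases, Fanconi genes and end joining genes held only falls. The median knockout difference in L2C was between -0.2 and 0.06 for these 7 lists, beside 0.03 for all genes.

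The course over the 10 group means of the total RNA libraries was compared with that of 9601 genes. Brca1 was most like Edc4, an mRNA decapping scaffold (Pearson r = 0.998), and Cd177 (0.996), and Brca2 most like the noncoding Snhg5 (0.994) and Ube3c (0.991). Palb2 was most like Rfpl4 (0.995) and Snrpb2 (0.992), Rad51c like Idh3a (0.997) and Map3k4 (0.992), and Rbbp8 like Omt2b (0.993) and Usp17lc (0.992). Bard1 was most like Agk (0.985) and Hsd3b7 (0.982), Rad52 like Ss18l1 and Rapgef5 (both 0.975), and Blm like Ciao2b (0.974) and Pigf (0.97). None of the 8 genes was most like another of them. Between the 8, r ran from 0.89 for Brca1 with Rad51c to -0.99 for Brca2 with Rad51c. The points share stages and libraries, so these values are descriptions without a test.

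At embryonic day 6.5 the libraries were poly(A) libraries of another kind, so their levels are not set against those of the early stages. Bard1 was at 2.11 to 4.46 FPKM in EPI, 3.02 to 4.02 in EXE and 0.947 to 1.8 in VE. VE libraries lay below all others, with EPI higher by 0.92 (SE 0.26, limma adjusted p = 0.0193, on these lineages alone 0.0222) and EXE by 1.0 (SE 0.22, limma adjusted p = 0.00749, alone 0.0225) on the log2 scale, as means over genotypes. Rad51c was at 4.44 to 7.09 FPKM in EPI, 3.52 to 5.98 in EXE and 1.22 to 1.83 in VE. Its VE libraries were again below all others, with EPI higher by 1.39 (SE 0.24, limma adjusted p = 0.00159, alone 0.00246) and EXE by 1.12 (SE 0.21, limma adjusted p = 0.00253, alone 0.0113). In the fit of all lineages, Rad51c kept both calls with each library left out in turn. Bard1 lost that of EPI against VE without EPI control replicate 1 or 2 or VE knockout replicate 1. With no filter on low values it lost that call too (limma adjusted p = 0.079). The call of Bard1 for EXE against VE was lost without EXE knockout replicate 1.

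Palb2 was at 7.48 to 16.1 FPKM in EPI, 6.91 to 7.4 in EXE and 3.75 to 8.19 in VE. EPI exceeded VE by 1.03 (SE 0.33, limma adjusted p = 0.0346, alone 0.0429), with 1 VE library, control replicate 2, within the EPI range. This call was lost without 6 of the 8 libraries in turn (limma adjusted p up to 0.181) and with no filter on low values (0.203). Brca2 was at 4.59 to 13.7 FPKM in EPI, 4.62 to 8.21 in EXE and 2.0 to 4.58 in VE, and EPI minus VE, 1.02 (SE 0.36, limma adjusted p = 0.0514, alone 0.071), was just outside the threshold and passed it with TPM scaling, or without EPI replicate 2 of either genotype or VE control replicate 2 (limma adjusted p 0.0315 to 0.039). Brca1 (2.67 to 6.82 FPKM over the 3 lineages), Rbbp8 (2.4 to 9.84), Rad52 (6.85 to 22.0) and Blm (5.94 to 15.7) had overlapping lineages and no called difference. Rad52 had its highest mean in VE, 16.3 ± 5.51 FPKM (SD, n = 4). Its EPI minus VE difference was -0.53 and its EXE minus VE difference -0.77 (limma adjusted p = 0.27 and 0.0835). Without VE control replicate 2 these differences were larger, at -0.84 and -1.07.
For EPI against VE, 3 of 8 genes were called higher in both fits, beside 34.2% of all genes (18.9% higher), and for EXE against VE 2 of 8, beside 26% (13.5% higher). With all lineages fitted the numbers were the same, beside 35.8% and 31% of all genes. EXE against EPI had 0 of 8, with limma, also at an unadjusted p under 0.05 (14.3% of all genes in both fits and 21% with all lineages). The median difference of all genes between EPI and VE was 0.2. S phase genes moved with this contrast: 9 of 17 were higher in EPI than VE in both fits and 0 lower, and their summed level was 1510 to 2570 FPKM in EPI, 1530 to 2010 in EXE and 813 to 1160 in VE. Their part in the difference of Bard1, Palb2 and Rad51c was not tested. Among other pathway genes, Dmc1, the meiotic recombinase, was higher in EPI than VE by 2.43 (SE 0.24, limma adjusted p = 5.01e-05, alone 0.000143). In the other lists the largest differences were 1.72 for Ccne1 (cyclin E1), 1.65 for Rif1, 1.21 for Fancl, 1.12 for H2ax, 1.09 for Eme1 and -1.16 for Babam2, with limma adjusted p of 0.000442 to 0.0163, and those of Fancl, H2ax, Eme1 and Babam2 were not called with no filter on low values. The calls of Babam2, Fancl and Eme1 were also lost without at least 1 of the 8 libraries (limma adjusted p up to 0.113).

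The maternal knockout gave no called difference for the 8 genes at embryonic day 6.5: every limma adjusted p in EPI and VE was 1, 0 of the 8 had an unadjusted p under 0.05, and 0% and 0.00719% of all genes were called. Brca1 in EPI was at 5.64 and 4.46 FPKM in controls and 6.82 and 5.54 in knockouts, a difference of 0.25 with a 95% interval of -0.84 to 1.33. Intervals of this width do not show that the genotypes are alike. Bard1 and Rad51c were higher in both knockout EPI libraries than in both controls (3.89 and 4.46 against 2.11 and 3.27 FPKM, and 6.43 and 7.09 against 4.44 and 5.24), by 0.5 (95% interval -0.43 to 1.43) and 0.41 (-0.45 to 1.28). In EPI the groups overlapped for the other 6 of the 8 genes. The share of all genes with groups apart in EPI is not given here, so these 2 are not read as a knockout effect. The 8 visceral endoderm markers summed to 9.87 and 10.2 FPKM in control EPI and to 1.97 and 4.86 in knockout EPI, and their part was not tested. In EXE, with 1 control library, the knockout was not tested. Rad51c was at 3.52 FPKM in the control and 5.84 and 5.98 in the knockouts. Bard1 lay the other way, at 4.02 in the control and 3.27 and 3.02 in the knockouts. Both knockout libraries lay on the same side of the control for 7 of the 8 genes, 3 higher and 4 lower, beside 66% of all genes.

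**Figure D4:**
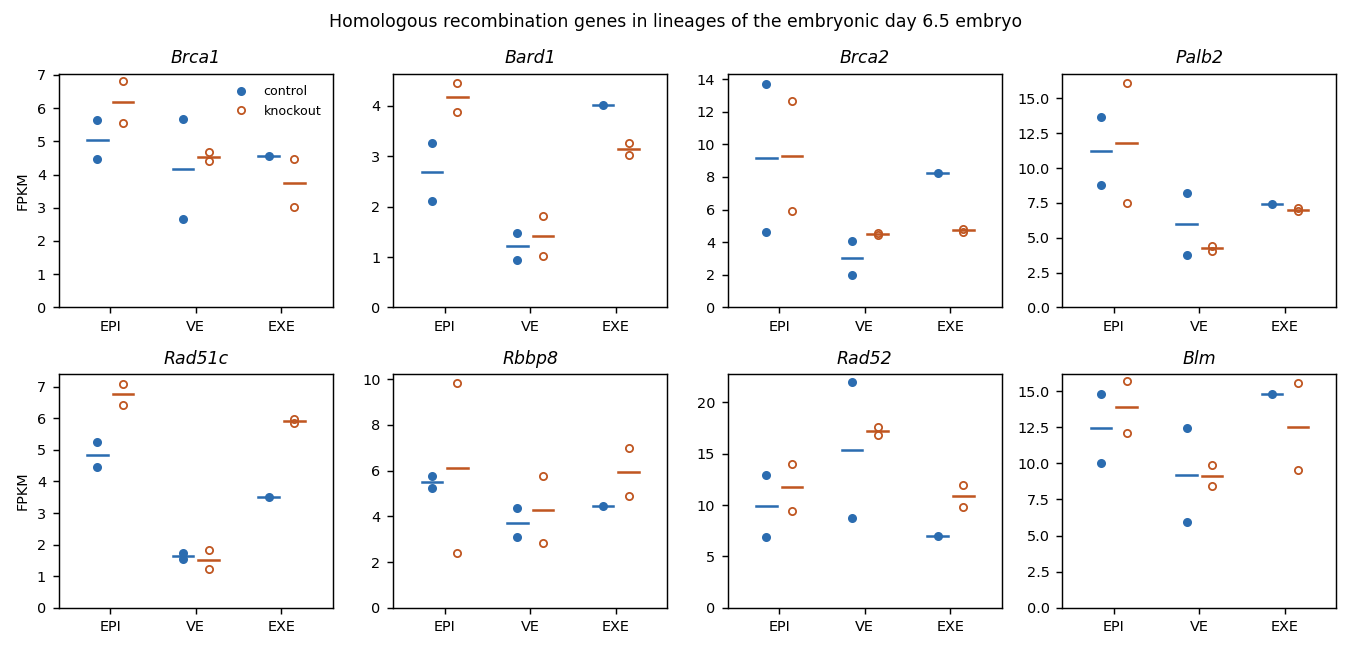
FPKM of the 8 genes (vertical axes, linear, from 0) in each poly(A) library by lineage (EPI, VE and EXE, embryonic day 6.5); filled circles are controls, open circles knockouts, bars are group means. Bard1 and Rad51c stay at or below 1.83 FPKM in all 4 VE libraries, and the EPI libraries of Brca2 spread from 4.59 to 13.7.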

How the data were processed

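Total RNA libraries (SMART-Seq Stranded) and poly(A) libraries (SMART-Seq mRNA with Nextera XT) are described per the labels' protocols. The authors deposited FPKM, 1 table for each library type, with column headers ending in rpkm. The submitters' processing notes name Trim Galore 0.6.6, STAR 2.7.9, StringTie 2.1.7 and mm10. Annotation, settings and use of strand are not given in the sources used here. FPKM keeps no read number, so depth is unknown and the number of libraries limits the precision. The deposited column of control epiblast replicate 1 holds FPKM like the others, except for 1 value just below 0, of a gene not described here, which was set to 0. Identifiers of all 8 genes matched GENCODE M21 with their version. Rbbp8 lies on chromosome 18 (11633276 to 11745221, plus strand, GRCm38).

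Values were fitted as log2(FPKM + 1) with limma 3.58.1 (R 4.3.3; lmFit, eBayes with trend), 1 mean per stage and genotype and 1 variance weight per stage or lineage, keeping a gene where 2 or more libraries reach 1 FPKM. This left 15184 and 13914 genes, all 8 among them. Tested on simulated data, the weighted fit called more unchanged genes than its threshold allows, and the fit of the compared stages alone was nearer to it. The rule to call changes only in both was therefore set after that test. The 8 genes and the lists were chosen with earlier results of these data known. The results of 1 further list are not reported here. Each gene of the 8 was named, and in each list the genes that rose and fell most in FGO and L2C and the one that differed most between EPI and VE. Tables and plots used Python 3.11.15, pandas 2.3.3 and matplotlib 3.10.9. Other settings tried were a pseudocount of 0.1, no filter, TPM scaling, median centring, no weights, the compared stages alone, a replicate block, and leaving out each library. Apart from the compared stages alone, each of these was applied to the fit of all stages or lineages. The fit of the compared stages alone was not repeated under them.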

Additional observations from a re-analysis of the deposited data

Results flagged for a closer look

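In embryonic day 6.5 lineages, 2 genes had every knockout library on one side of the control or controls in EXE and on the other side in another lineage. Bard1 had a ratio of knockout to control means of 0.782 in EXE and 1.55 in EPI. Brca2 had a ratio of 0.574 in EXE and 1.49 in VE. These differences were not tested. EXE has 1 control library, and its 2 knockout libraries lay on the same side of it for 66% of 13914 genes tested. Opposite sides in EXE and EPI were found for 7.42% of all genes and in EXE and VE for 5.81%, beside 1 of the 8 genes in each case. No group has 4 or more libraries, so single libraries far from their group were not tested for.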

How the results depend on the processing

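The text counts how many of the 8 genes had a limma adjusted p under 0.05 in each of 19 comparisons with all stages fitted. For the knockout in FGO, main 0, median centring gave 1. In MII, main 3, no variance weights and MII alone gave 0 and the replicate block 1. In L1C, main 1, the value was 0 with a pseudocount of 0.1, no filter, TPM scaling, no weights, L1C alone and the replicate block. In E2C, main 1, it was 0 with a pseudocount of 0.1, no filter and the replicate block. In L2C, main 2, it was 1 with no filter. For MII to L1C in controls, main 1, it was 0 with no filter or no weights and 5 with median centring, where the 5 are other genes and all higher. For the difference of effects between E2C and L2C, main 0, it was 2 with no weights and 1 on these stages alone. For EPI against VE, main 3, it was 1 with no filter, and TPM scaling added Brca2. For E2C to L2C, main 7, no filter ended the call of Rad51c. For L1C to E2C, main 7, TPM scaling gave 5, without Palb2 and Blm. The replicate block gave 3 of 7 for L1C to E2C, ending the calls of Palb2, Rbbp8, Rad52 and Blm, 2 of 7 for E2C to L2C, leaving Brca2 and Palb2, and 1 of 3 for EPI against VE, leaving Rad51c. Leaving out 1 library gave 1 to 2 in MII, 0 in L1C, 0 to 1 in E2C, 1 to 2 in L2C, 0 to 1 for FGO to MII, 0 to 1 for MII to L1C, 5 to 7 for L1C to E2C, 4 to 7 for E2C to L2C, 1 to 5 for EPI against VE and 1 to 3 for EXE against VE. The causes were not tested. Of 2862 values of single genes under these settings, 2520 kept direction and call, 159 lost and 30 gained the call, 153 that were not called changed sign, and 0 called values reversed.

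Replicate numbers are not said to pair libraries. Deviations of same-numbered control and knockout libraries correlated at -0.08 to 0.14 in the early stages, 0.59 in EPI and 0.42 in VE, and those of EPI and VE at -0.3 and -0.38. With the VE numbers crossed, a setting chosen after seeing the data, the block called 4 genes for EPI against VE and 2 for EXE against VE. Depth is unknown, groups hold 1 to 3 libraries, and the knockout in EXE, with 1 control library, was not tested.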

Other observations

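The EPI libraries of the same replicate number resembled each other in several of the 8 genes whatever their genotype. Brca2 in replicate 1 was 2.99 times its level in replicate 2 among controls and 2.13 times among knockouts, and Palb2 1.55 and 2.16 times. Rad52 went the other way, at ratios of 0.529 and 0.67. Rbbp8 had unlike ratios in the 2 genotypes, 0.906 among controls and 0.244 among knockouts. The summed level of 17 S phase genes was lower in replicate 1 (1520 and 1510 FPKM) than in replicate 2 (2120 and 2570).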
